A study of Homo sapiens with 13 samples.

Results

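The accessible regions of chromosomes 15 and 21 are described here for H82 and H146, a pair of established cell lines from small cell lung cancer (SCLC). These chromosomes were chosen by the number of regions each line had on them: of the 24 chromosomes they had the highest ratio of H82 to H146 regions, so that ratio and everything drawn from the same contrast is a description and carries no test. Every region of both lists on the 2 chromosomes was taken, which gave 9733 H82 and 5343 H146 regions, 15076 of 381020 in all. Chromosome 15 held 6812 H82 and 3792 H146 regions, and chromosome 21 held 2921 and 1551.

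Chromatin accessibility was measured by ATAC-seq. This assay uses a transposase, Tn5, that inserts sequencing adapters where DNA is open. There were 4 untreated H146 samples and 3 H146 samples given FHD-286, an inhibitor of the ATPases SMARCA2 and SMARCA4, at 100 nM for 14 days, with 3 untreated and 3 treated H82 samples. The deposited values were 1 list of regions per line on hg38, merged over its untreated and treated samples, with no height, read count or sample of origin. A region therefore stands for DNA that was open in at least 1 sample of the line. No replicate spread could be computed, the read depth was unknown, and FHD-286 could not be compared with untreated cells. The intervals given are 95% intervals that cover counting error only.

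H82 is of the SCLC subtype named for NEUROD1, a neural bHLH transcription factor, and H146 is of another neuroendocrine subtype. NEUROD1 had a region at its transcription start site (TSS), within 1 kb, in H82 but not in H146, whereas both lines had a region at the neuroendocrine genes INSM1, SYP, CHGA and NCAM1.

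Chromosome 15 carries the imprinted Prader-Willi and Angelman interval on its proximal long arm, several families of near-identical golgin genes, the cluster of nicotinic receptor genes CHRNA5, CHRNA3 and CHRNB4, and NR2F2, which encodes the nuclear receptor COUP-TFII. Chromosome 21 carries a gene-poor proximal long arm and a gene-rich distal part with the neural transcription factors OLIG1, OLIG2 and SIM2, the channel gene KCNJ6, RUNX1, the interferon receptor genes and the collagen VI genes. Promoters tend to be open in many cell types, while open sites away from promoters differ more between cell types. Neuroendocrine transcription factors act largely at such distal sites.

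The promoters at which the lines differed are shown first. For H82 they are taken from the genes of each chromosome with the widest H82 region within 1 kb of the TSS, no H146 region there, and the same outcome when the TSSs of all transcripts were used. KRTAP12-2 stands for the H146 side. The 200 bases upstream of the TSS are given 5′ to 3′ on the gene's strand. Capitals mark exact matches, on either strand, to CAGATG and CAGCTG (E-box words of bHLH factors), TAATCC (the OTX2 word), TGTTTAC (the forkhead word), GGGCGG (the GC box) and CCAAT, and overlapping matches run together. A capital stretch read on the other strand spells the reverse complement.

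ISL2, chr15:76336573-76336772, plus strand: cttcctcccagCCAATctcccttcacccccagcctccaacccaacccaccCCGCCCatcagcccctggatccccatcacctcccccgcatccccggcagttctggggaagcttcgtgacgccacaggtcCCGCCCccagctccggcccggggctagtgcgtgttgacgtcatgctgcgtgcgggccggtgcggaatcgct
CPLX3, chr15:74826427-74826626, plus strand: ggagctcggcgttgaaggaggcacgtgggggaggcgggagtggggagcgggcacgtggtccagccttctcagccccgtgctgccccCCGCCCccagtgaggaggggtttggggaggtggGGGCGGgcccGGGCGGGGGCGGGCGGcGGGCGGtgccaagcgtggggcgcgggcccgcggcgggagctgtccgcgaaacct
FBXL22, chr15:63597153-63597352, plus strand: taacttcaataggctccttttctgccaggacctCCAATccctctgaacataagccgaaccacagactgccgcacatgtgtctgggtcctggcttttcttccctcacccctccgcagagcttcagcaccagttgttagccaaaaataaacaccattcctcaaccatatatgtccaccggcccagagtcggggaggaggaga
DNMT3L, chr21:44262217-44262416, minus strand: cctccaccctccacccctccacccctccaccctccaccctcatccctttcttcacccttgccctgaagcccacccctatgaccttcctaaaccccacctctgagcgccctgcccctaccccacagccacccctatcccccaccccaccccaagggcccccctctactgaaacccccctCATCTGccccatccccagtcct
KRTAP12-2, chr21:44666928-44667127, minus strand: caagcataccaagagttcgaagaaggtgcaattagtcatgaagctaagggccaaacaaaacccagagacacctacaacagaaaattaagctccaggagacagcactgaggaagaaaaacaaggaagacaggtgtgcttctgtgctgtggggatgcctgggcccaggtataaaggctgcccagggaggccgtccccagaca

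ISL2 and CPLX3 held the GC box, with 2 and 6 matches, and DNMT3L held 1 CAGATG match. The word CCAAT was found once upstream of ISL2 and of FBXL22. The GC box was in 40.1% and CCAAT in 28.0% of 35116 RefSeq promoters over the same length, and CAGATG in 9.59%. TAATCC and TGTTTAC were in none of the 5 stretches, against 4.43% and 2.32% of all promoters. The GC content was 69.0% upstream of ISL2, 78.5% for CPLX3, 52.5% for FBXL22, 66.0% for DNMT3L and 51.0% for KRTAP12-2.

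The higher ratio on these chromosomes came from both lines. H82 had 80.5 regions per Mb of sequence on chromosome 15 and 72.9 on chromosome 21, against 70.1 over the other 22 chromosomes. H146 had 44.8 and 38.7 per Mb, against 60.0. By density, chromosome 21 ranked 14 of 24 in H82 and 22 of 24 in H146, and chromosome 15 ranked 6 and 19. The label of these chromosomes as richer in H82 thus holds for the ratio, but on chromosome 21 the H82 density was close to that of the rest of the genome and the H146 density was far below it.

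The ratio of H82 to H146 regions was 1.80 on chromosome 15 and 1.88 on chromosome 21, against 1.17 on the other 22. Relative to those 22, the log2 ratio was 0.62 (0.563 to 0.678) on chromosome 15 and 0.69 (0.599 to 0.778) on chromosome 21. Just outside came chromosome 1 at 0.33, and chromosome 18 was lowest at -0.57. Counted in covered bases in place of regions, the values were 0.69 and 0.78, with chromosome 14 next at 0.60.

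**Figure D1:**
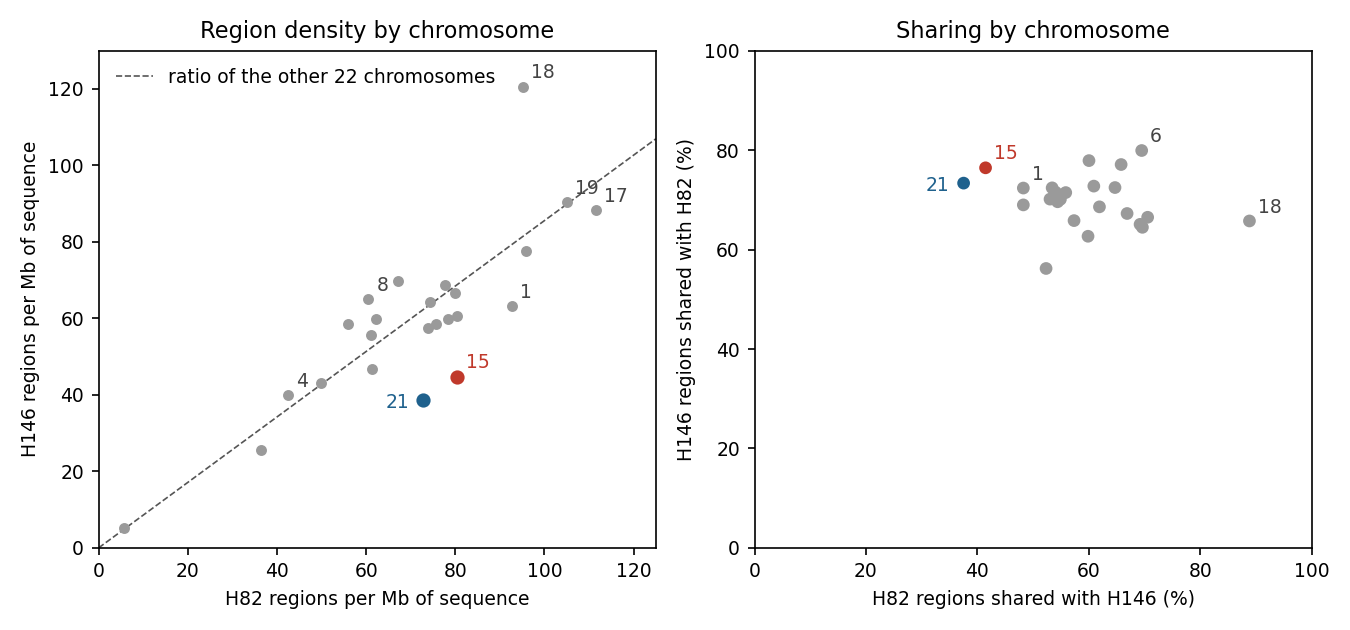
Left: regions per Mb of sequence in H82 (x axis) and H146 (y axis), 1 point per chromosome, with a dashed line at the ratio of the other 22 chromosomes. Right: percent of H82 regions that overlap an H146 region (x axis) and the reverse (y axis). Chromosomes 15 (red) and 21 (blue) lie below the dashed line and farthest left in the panel on sharing, at 41.5% and 37.5%.

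A region was called shared if it overlapped a region of the other line by at least 1 bp. Of the H82 regions, 41.5% (40.3 to 42.6%) were shared on chromosome 15 and 37.5% (35.8 to 39.3%) on chromosome 21, the lowest shares of the 24 chromosomes, against 60.2% on the others. In H146 the shares were 76.5% (75.1 to 77.8%) and 73.4% (71.1 to 75.6%), against 70.4%. By this measure most H82 regions had no H146 counterpart, while 893 of 3792 and 413 of 1551 H146 regions had no H82 counterpart.

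H82-only regions numbered 3988 on chromosome 15 and 1825 on chromosome 21, or 47.1 and 45.5 per Mb against 27.9 per Mb elsewhere. Chromosome 1 was higher, at 48.0 per Mb, and chromosomes 17 and 20 were close, at 44.6 and 43.2. The H146-only regions came to 10.6 and 10.3 per Mb, against 17.8. The ratio of H82-only to H146-only regions was 4.47 and 4.42, against 1.57 on the other 22 and at most 2.75 on any of them. Shared sites were also sparser than elsewhere, at 33.4 and 27.3 H82 regions per Mb against 42.2.

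Width separated the lines at both ends of the scale. The median region of chromosome 15 was 470 bp wide for H82 and 501 bp for H146, and that of chromosome 21 was 459 and 480 bp, against 483 bp for H82 on the other chromosomes. The ratio of H82 to H146 regions on chromosome 15 was 2.60 for regions of exactly 200 bp, the narrowest that occur, 1.55 from 500 bp to under 1 kb, and 6.57 at 5 kb or more. On chromosome 21 these ratios were 3.61, 1.71 and 5.50. On the other chromosomes the ratio stayed between 1.12 and 1.45 over the 7 width classes.

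Wide regions were as frequent in H82 as elsewhere, and scarce in H146. Regions of at least 5 kb made up 0.675% of the H82 regions of chromosome 15 (46 regions) and 0.753% of those of chromosome 21 (22 regions), against 0.743% elsewhere. In H146 the shares were 0.185% (7 regions) and 0.258% (4 regions), against 0.600%, and chromosome 15 had the lowest such share of the 24. H82 regions of 200 bp made up 6.25% on chromosome 15, close to the 6.27% elsewhere, but 9.76% on chromosome 21, the highest share of any chromosome.

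**Figure D2:**
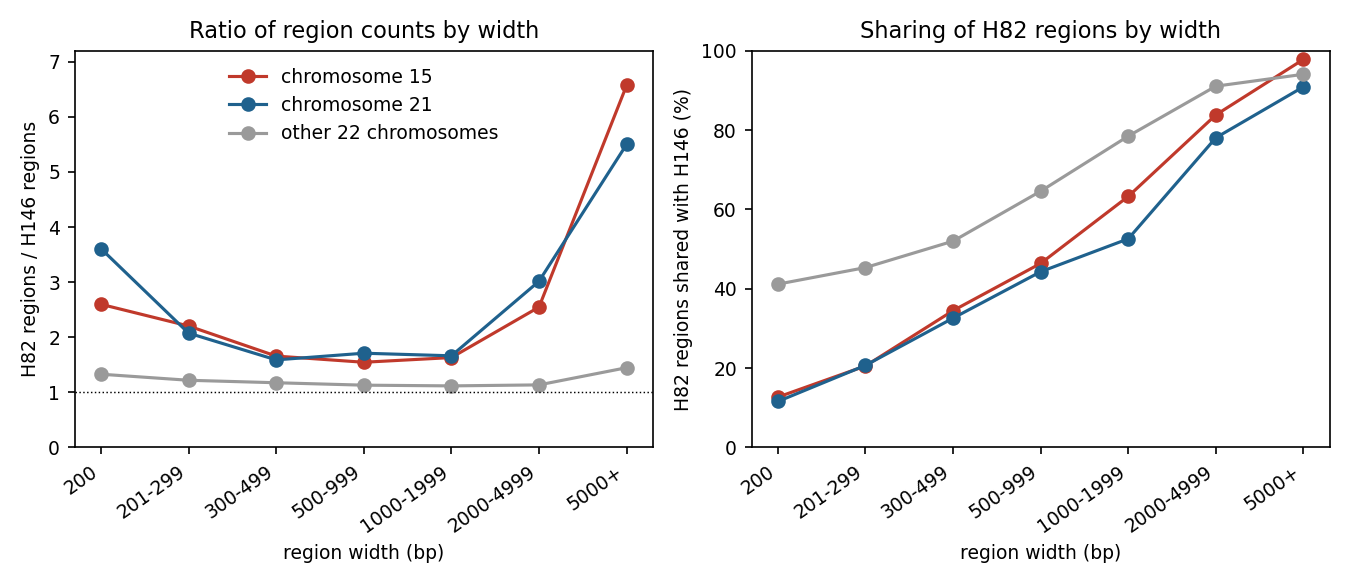
Left: ratio of H82 to H146 regions (y axis) in 7 classes of region width in bp (x axis) for chromosomes 15 and 21 and the other 22 together. Right: percent of H82 regions of each class shared with H146. The ratio is highest for the narrowest and widest classes on chromosomes 15 and 21, reaching 6.57 and 5.50 at 5 kb or more, and fewer H82 regions under 5 kb are shared than elsewhere.

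The wide H82 regions were open only in places in H146. H146 regions covered a median of 39.2% of the bases of the 46 wide H82 regions on chromosome 15 and 24.5% of the 22 on chromosome 21, against 77.5% for 1466 on the other chromosomes. On chromosome 15 the widest was a region of 10813 bp at PSTPIP1, a cytoskeletal adaptor of blood cells, of which H146 regions covered 14.8%. The next were 9599 bp at CSPG4, which encodes the NG2 proteoglycan, with 17.5% covered in H146, and 8783 bp at GOLGA6D, with 7.92% covered. Such regions were most crowded from 75 to 78 Mb, with 5, 2 and 4 in successive 1 Mb windows, among them those at CSPG4, ISL2 and PSTPIP1.

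On chromosome 21, 8 wide H82 regions adding up to 62.1 kb lay between 44 and 45 Mb, at AIRE, CFAP410, ITGB2, PFKL and TSPEAR, and H146 regions covered 17.5% of them. The 3 wide H82 regions from 8 to 9 Mb on the short arm, 46.2 kb in all and in no protein-coding gene, were instead covered by H146 regions to 99.7%. They included the widest pair of the chromosome, of 17024 and 16955 bp, and the next, of 13371 bp from 9 to 10 Mb, was covered to 62.3%. The widest H146 regions of chromosome 15 were 6927 bp at TLE3, a Groucho-type corepressor gene, 6519 bp in no protein-coding gene, and 6283 bp at SIN3A, which encodes a scaffold of histone deacetylase complexes, and H82 regions covered 100%, 70.1% and 100% of them.

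In windows of 1 Mb, called bins here, the excess of H82 regions ran along most of chromosome 15. Of 81 bins with at least 10 regions of both lines together, H82 had more regions in 77 and H146 in 4, and the median log2 ratio was 0.88 (range -0.74 to 2.81). The log2 ratio reached 1 in 34 bins, or 42.0%, where 10.2% of all 2884 bins of the genome did. No bin of chromosome 15 or 21 was at -1 or below, against 0.381% of all bins. In blocks of 10 Mb from 20 to 90 Mb the ratio ran from 1.81 to 2.11, and it was 1.55 from 90 to 100 Mb and 1.24 in the last 2 Mb.

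Chromosome 21 was less even. Of 41 bins, H82 had more regions in 31 and H146 in 9, 14 bins reached a log2 ratio of 1, and the median was 0.73 (range -0.97 to 3.83). The ratio was 1.40 before 10 Mb, 1.91 from 10 to 20 Mb, 1.25 from 20 to 30 Mb, 2.04 from 30 to 40 Mb and 2.20 from 40 to 47 Mb. It was higher in bins of higher GC content, but the blocks did not follow that order, since the block from 10 to 20 Mb had 37.5% GC and that before 10 Mb 43.0%. In bins of chromosome 21 with under 38.5% GC the ratio was 1.28 (14 bins), at 38.5 to 42.2% it was 1.53 (10 bins), and above that it was 2.18 (17 bins, all with more H82 regions). On chromosome 15 the same 3 classes gave 1.71, 1.74 and 1.83, and on the other chromosomes 1.12, 1.19 and 1.18. The part of GC content in the ratio was not tested.

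**Figure D3:**
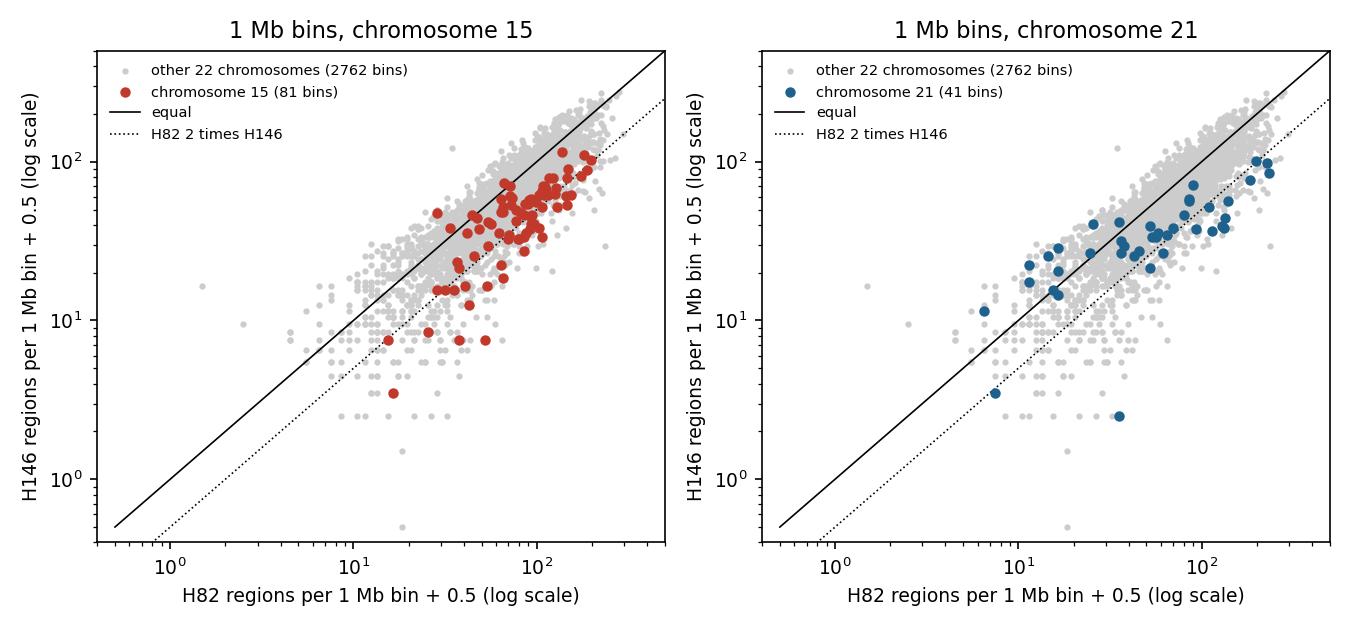
Regions of H82 (x axis) and H146 (y axis) in each 1 Mb bin, with 0.5 added to each count, on log scales. Coloured points are the 81 bins of chromosome 15 (left) and the 41 bins of chromosome 21 (right), and grey points are 2762 bins of the other 22 chromosomes. Most coloured points lie below the solid line of equal counts, and 34 and 14 of them reach the dotted line at 2 times as many H82 regions.

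Sharing by bin followed the same course. Under 50% of the H82 regions were shared in 59 of 81 bins of chromosome 15 (72.8%) and 26 of 41 of chromosome 21 (63.4%), against 28.5% of bins elsewhere. The median bin had 40.3% of its H82 regions shared on chromosome 15 and 42.9% on chromosome 21, with a range from 12.5 to 100% and from 5.71 to 100%. For H146 the medians were 75.9% and 72.2%, near the 69.5% of bins elsewhere. Median widths by bin overlapped widely, from 324 to 682 bp in H82 and 336 to 747 bp in H146 on chromosome 15.

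The bins of highest ratio on chromosome 15 held at most 3 protein-coding TSSs each. From 96 to 97 Mb, where NR2F2 is the only protein-coding gene, H82 had 52 regions and H146 had 7, and all 7 were shared. From 25 to 26 Mb, with UBE3A and ATP10A, the counts were 37 and 7, and from 54 to 55 Mb, with no protein-coding TSS, 16 and 3. The bins at 29 Mb (ENTREP2, NSMCE3 and TJP1, 65 against 18) and 33 Mb (FMN1, RYR3 and CHRM5, 42 against 12) followed. In each of the 5 bins H82 had more than 3 times the regions of H146.

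The lowest bin of chromosome 15 lay close to the highest. From 94 to 95 Mb, at MCTP2, H82 had 28 regions, all of them shared, and H146 had 47, of which 19 were H146-only. The bin from 21 to 22 Mb, with POTEB and other genes of many copies, had 33 and 38, and the bin at RGMA, a repulsive guidance gene, from 93 to 94 Mb had 66 and 73. The order of the lines thus changed within 3 Mb on the distal long arm.

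On chromosome 21 the bin of highest ratio held no protein-coding TSS. From 16 to 17 Mb H82 had 35 regions and H146 had 2, and both H146 regions were shared. MIR99AHG, the host gene of the microRNAs miR-99a, let-7c and miR-125b-2, spans most of this bin, and over its length H82 had 31 regions and H146 had 2. The next bins lay in the distal gene-rich part: 46 to 47 Mb with COL6A2 and PCNT (132 against 38), 32 to 33 Mb with MRAP and SYNJ1 (129 against 39), 37 to 38 Mb with DYRK1A (114 against 36), and 33 to 34 Mb with OLIG1, OLIG2 and the interferon receptor genes (134 against 44).

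The lowest bins of chromosome 21 lay between 22 and 28 Mb. H146 had as many regions as H82 or more in each of 6 bins in a row from 19 to 25 Mb, 113 against 75 in all, in sequence of 35.01% GC whose only protein-coding gene is NCAM2, a neural adhesion gene. It was the only such run of 3 or more bins on the 2 chromosomes, and the genome held 100. The 3 lowest bins, starting at 24, 22 and 27 Mb, had 11 against 22, 6 against 11 and 14 against 25 regions. Between the run and the 27 Mb bin, H82 had more regions at 25 Mb (37 against 29) and 26 Mb (64 against 34).

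Line-only regions lay mostly in introns and between genes. On chromosome 15, 49.4% of H82-only regions were centred in an intron of a protein-coding gene, on chromosome 21 44.4%, and elsewhere 46.8%. Regions within 1 kb of a protein-coding TSS were 1.98% and 1.64% of H82-only regions, against 14.3% and 12.0% of shared H82 regions. On the other chromosomes these shares were 1.37% and 10.8%. The H82-only regions of chromosome 21 had a median GC content of 53.1% and its H146-only regions 45.5%, and on chromosome 15 the medians were 50.9% and 46.9%.

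At gene starts, 601 protein-coding genes of chromosome 15 and 220 of chromosome 21 were examined. On chromosome 15 469 genes had a region at the TSS (within 1 kb) in both lines, 67 (11.1%) in H82 alone, 3 in H146 alone and 62 in neither. On chromosome 21 the counts were 143, 23 (10.5%), 5 (2.27%) and 49. Over all 20033 genes, 5.1% had a region in H82 alone and 1.86% in H146 alone. Most promoters were thus open in both lines here too, and most line-only regions lay away from them. The starts with a region in a single line were also more often those of H82 than of H146.

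These calls depend on which start is used. The TSS was the 5′ end of the gene, and with the TSSs of all transcripts 37 of the 67 H82 genes of chromosome 15 and 15 of the 23 of chromosome 21 kept an H82 region and no H146 region. Among those that did not were NR2F2, RYR3, ALDH1A3, TRPM1, LTK, GNB5 and STRC on chromosome 15 and AIRE, KCNJ6, TRPM2, RUNX1 and IFNAR2 on chromosome 21, for which H146 had a region at another start. Genes of families of close copies, grouped by name, were 14 of the 67 (golgin genes) and 6 of the 23 (keratin-associated protein genes). Reads may not be placed with certainty at close copies, but this was not measured.

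Within 10 kb of the TSS, H82 alone had regions at 30 genes of chromosome 15 (4.99%) and 25 of chromosome 21 (11.4%), against 3.79% of all genes, and H146 alone at 4 (0.666%) and 5 (2.27%), against 1.49%. On chromosome 21, 14 of the 25 were keratin-associated protein genes. H82 had more regions than H146 within 10 kb at 65.1% of the genes of chromosome 15 and 66.4% of those of chromosome 21, against 37.7% elsewhere. Over the gene with 10 kb on each side, it had more at 84.4% and 78.2%, against 50.8%.

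The widest H82 region at a start without an H146 region was that of ISL2, a LIM homeodomain gene of motor neurons. It was 7874 bp long and covered the whole 2 kb around the TSS, which H146 regions left uncovered. It also overlapped an H146 region outside those 2 kb and so counts as shared. The same holds for the H82 regions at the starts of CPLX3, FBXL22, LTK, AIRE and DNMT3L. Within 10 kb of the ISL2 TSS H82 regions covered 70.3% of the bases and H146 regions 10.5%. CPLX3, which encodes a complexin that regulates transmitter release, came next with a region of 5525 bp, and 70.3% against 17.5% of the bases within 10 kb. H146 had more, narrower regions there (7 against 5).

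Other genes of chromosome 15 with an H82 region alone at the start included FBXL22 (5309 bp), STRC, the stereocilin gene of the inner ear, which has a near-identical copy (3189 bp), and RHCG, an ammonium transporter gene (1983 bp). LTK, a receptor tyrosine kinase gene related to ALK (3599 bp), had 7 H82 and 2 H146 regions within 10 kb. APBA2 encodes a neuronal adaptor that binds the amyloid precursor protein. Its H82 region of 2708 bp lay downstream of the TSS and covered only 2.6% of the bases within 1 kb. APBA2 had 5 H82 regions and no H146 region within 10 kb, and 35 against 2 over the gene with 10 kb on each side. At GNB5, a G protein gene of neurons, the counts within 10 kb were 4 and 0, and at AGBL1 they were 6 and 0.

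GREM1, a BMP antagonist gene, and its neighbour SCG5, the gene of the prohormone convertase chaperone 7B2, both had a region at the start in H82 alone, as did the imprinted gene NDN, which encodes necdin. These 3 calls held with the TSSs of all transcripts. The 3 genes of chromosome 15 with a region in H146 alone had narrow ones, 441 bp at ENSG00000289025, 398 bp at LINC02203 and 229 bp at CALML4. CALML4 nevertheless had 8 H82 regions and 2 H146 regions within 10 kb.

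On chromosome 21 the widest was at AIRE, the gene of the thymic regulator of self-antigen expression, with 4386 bp. H82 had 4 regions within 10 kb that covered 66.7% of the bases, and H146 had 6 that covered 14.9%. DNMT3L, the cofactor gene of de novo DNA methylation, had a region of 3480 bp in H82, with 7 H82 regions and 1 H146 region within 10 kb.

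OLIG1 and OLIG2, bHLH genes of oligodendrocyte and motor neuron precursors, lie side by side and both had a region in H82 alone at the start. The OLIG1 region was 2424 bp wide, and within 10 kb H82 had 5 regions and H146 none. The OLIG2 region was 1952 bp wide, and the counts were 6 and 1. Both calls held with all transcripts.

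KCNJ6, the gene of the potassium channel GIRK2, had a region of 1343 bp at its start in H82 and 46 regions against 9 over the gene with 10 kb on each side. TRPM2, a cation channel gene, had 6 against 0 within 10 kb and 34 against 6 over the gene. TPTE had 2 against 1 within 10 kb, CLIC6 had 1 against 1, and ERVH48-1, the gene of an endogenous retroviral envelope protein, had 6 against 3. KRTAP24-1 had 1 H82 region within 10 kb and none in H146. C21orf62, beside OLIG2, and MRAP, a melanocortin receptor accessory gene, had 5 and 4 H82 regions within 10 kb and none in H146, but none at the start.

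The 5 genes of chromosome 21 with a region in H146 alone at the start were KRTAP12-2 (472 bp), C21orf140 (452 bp), SMIM34 (294 bp), KRTAP10-3 (221 bp) and B3GALT5 (218 bp), a glycosyltransferase gene. All 5 regions were under 500 bp wide. Within 10 kb H146 alone had 1 region each at BACH1, FAM3B, KRTAP12-2, KRTAP8-1 and TMPRSS2. On chromosome 15 it had 2 each at GCNT3 and THSD4 and 1 each at ENSG00000289025 and LINC02203. At BACH1, a gene of a haem-binding repressor, the order turned over the gene with 10 kb on each side, with 47 H82 and 16 H146 regions.

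Most gene lists had more H82 regions, as these chromosomes did as a whole. Of all 20033 genes, 38.9% had more H82 regions within 10 kb and 21.3% more H146 regions. For all genes of chromosome 15 these shares were 65.1% and 7.49%, and for those of chromosome 21 they were 66.4% and 10.9%. Of 23 neural and neuroendocrine genes of chromosome 15, 18 had a region at the start in both lines, 2 in H82 alone (ISL2 and RYR3) and 3 in neither. H82 had more regions within 10 kb at 17 and H146 at 1, with 98 against 52 regions in all. The median share of bases covered was 26.6% in H82 and 10.5% in H146. It was 13.24% and 8.225% for all genes of chromosome 15, and 12.6% and 10.9% for all genes of the genome.

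Among them, LINGO1, a neuronal leucine-rich repeat gene, had 8 against 1 regions within 10 kb and 75 against 29 over the gene with 10 kb on each side. SEMA7A had 7 against 2, ISLR2 8 against 4, and ONECUT1, a homeodomain gene, 6 against 2. NTRK3, the gene of the neurotrophin receptor TrkC, had 22 against 2 regions over the gene, although the H82 region at its start was 420 bp wide and that of H146 1460 bp. The nicotinic receptor genes differed little in number, with 2 against 1 at CHRNA5, 4 against 5 at CHRNA3 and 5 against 3 at CHRNB4.

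Of 20 signalling and non-neuroendocrine genes of chromosome 15, 15 had a region at the start in both lines and 4 in H82 alone (GREM1, ALDH1A2, ALDH1A3 and NR2F2). With the TSSs of all transcripts only the GREM1 call held, and ALDH1A2, ALDH1A3 and NR2F2 had a region in both lines. H82 had more regions within 10 kb at 13 and H146 at 2, with 67 against 41 in all. ALDH1A2 and ALDH1A3 encode enzymes that make retinoic acid, and their counts were 3 against 1 and 4 against 0. NR2F2 had 5 H82 regions within 10 kb, covering 37.1% of the bases, and 1 H146 region, covering 6.98%, and an H146 region lay within 1 kb of the start of another NR2F2 transcript. At SPRED1 and THBS1 the counts were 1 against 2, in the other direction.

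In the imprinted cluster the lines had 39 against 28 regions within 10 kb of the starts, and 184 against 93 over the genes with 10 kb on each side. Of 17 genes, 11 had a region at the start in both lines, 2 in H82 alone (NDN among them) and 4 in neither, and H82 had more regions within 10 kb at 6 and H146 at 3. SNURF, whose start lies at the imprinting centre, had a region of 2243 bp in H82 and 2440 bp in H146, and UBE3A had 1874 and 1798 bp. MKRN3 and MAGEL2 had 5 against 6 and 3 against 4 regions within 10 kb. ATP10A had none at its start in either line, but 16 regions against 0 over the gene with 10 kb on each side, and CYFIP1 had 27 against 8. At OCA2, the pigment gene, H82 regions covered 51.3% of the bases within 10 kb and H146 regions 18.2%.

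Golgin genes stood apart in number, with the limit that they are near-identical copies. Of 29, 10 had a region at the start in both lines, 14 in H82 alone and 5 in neither, and H82 had more regions within 10 kb at 26 and H146 at none.

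**Figure D4:**
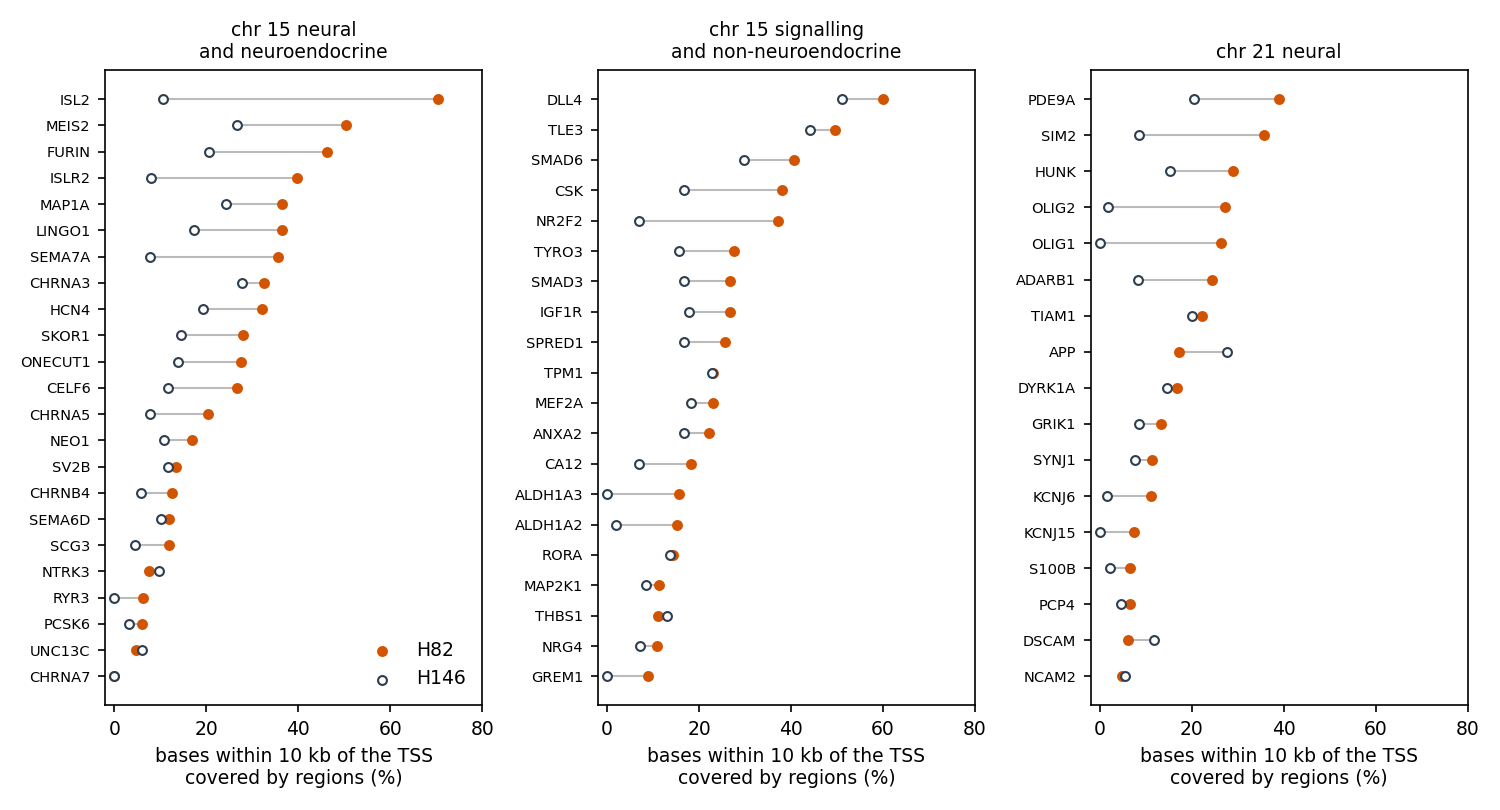
Percent of the bases within 10 kb of the TSS covered by regions of H82 (filled) and H146 (open), 1 row per gene, for 3 gene lists. H82 is to the right for most genes, with the widest gap at ISL2 (70.3% against 10.5%). H146 is to the right at NTRK3 and UNC13C, THBS1, and APP, DSCAM and NCAM2.

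Of 17 neural genes of chromosome 21, 13 had a region at the start in both lines, 3 in H82 alone (OLIG1, OLIG2 and KCNJ6) and 1 in neither. H82 had more regions within 10 kb at 13 and H146 at 2, PCP4 and DSCAM, with 67 against 23 in all. SIM2, a bHLH-PAS gene, had 11 against 1 within 10 kb and 23 against 1 over the gene with 10 kb on each side. ADARB1, an RNA editing gene, had 6 against 1, HUNK 6 against 2, and PDE9A 8 against 3. DYRK1A had 1 against 1 within 10 kb, and 21 against 6 over the gene.

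Some neural genes of chromosome 21 went the other way. At DSCAM, a gene of neural wiring, H146 had 3 regions within 10 kb against 1 and 37 against 23 over the gene with 10 kb on each side. NCAM2 had 9 H146 and 5 H82 regions over the gene. At APP, H146 regions covered 27.6% of the bases within 10 kb and H82 regions 17.1%, with a region of 5122 bp against 2338 bp at the start, although H82 had more regions over the gene (31 against 22).

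The 10 RUNX, ETS and other transcription factor genes were nearly balanced, with 25 against 21 regions within 10 kb, and H82 had more at 5 and H146 at 3 (BACH1, ETS2 and AIRE). A region at the start in H82 alone was found at RUNX1 and AIRE. At RUNX1 the H82 region at the gene's 5′ end was 200 bp wide and H146 had none there, while over the gene with 10 kb on each side H82 had 48 and H146 had 51. ERG had 24 against 11 and ETS2 had 5 against 5. Of 8 interferon and cytokine receptor genes, H82 had more within 10 kb at 5 and H146 at 3, and the only one-line start was IFNAR2, with an H82 region of 200 bp.

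Of 13 matrix, protease and trefoil genes, 7 had a region at the start in both lines, 1 in H82 alone (TFF2, 307 bp) and 5 in neither, and H82 had more regions within 10 kb at 7 and H146 at 2. H82 regions covered 75.4% of the bases around COL6A1, which encodes a collagen VI chain, and H146 regions 15.2%, although H146 had more of them (7 against 6). At COL18A1 the counts were 6 and 1. Of 49 keratin-associated protein genes, 28 had no region at the start in either line, 13 had one in both, 6 in H82 alone and 2 in H146 alone, and H82 had more regions within 10 kb at 31 and H146 at 4.

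Noncoding genes were counted in the same way. Among lncRNA genes, the TSS had an H82 region alone within 1 kb at 121 of 786 on chromosome 15 (15.4%) and 61 of 355 on chromosome 21 (17.2%), against 8.05% of 18866 over the genome, and H146 alone at 23 (2.93%) and 7 (1.97%), against 4.23%. Among microRNA genes the counts for H82 alone were 12 of 69 (17.4%) and 2 of 29 (6.9%), against 9.58% of 1879 over the genome, and for H146 alone 3 (4.35%) and 0, against 5.11%. On chromosome 21 the H82 share of microRNA genes within 1 kb was thus below that of the genome, on 2 genes. Within 10 kb it was above, at 6 of 29 (20.7%) against 10.2% over the genome.

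The mature sequences of 4 of these microRNAs, from RefSeq on GRCh38.p14, are shown because their loci had H82 regions alone within 1 kb or 10 kb. Capitals mark the seed, bases 2 to 8. No seed is shared among them.

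hsa-miR-9-5p (MIR9-3): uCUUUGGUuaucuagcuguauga
hsa-miR-184 (MIR184): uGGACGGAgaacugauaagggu
hsa-miR-99a-5p (MIR99A): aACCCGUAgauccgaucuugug
hsa-let-7c-5p (MIRLET7C): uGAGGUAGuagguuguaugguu

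MIR9-3 is 1 of several loci of miR-9, a microRNA of the nervous system. H82 regions covered 88.1% of the bases within 1 kb of its start and H146 regions none, and within 10 kb there were 7 and 3 regions. At MIR184 the H82 share within 1 kb was 21.7% and H146 had no region within 10 kb. MIR99A and MIRLET7C had no region within 1 kb in either line, and 1 H82 region and no H146 region within 10 kb. These genes lie under 1 kb apart, and 1.62% of the bases within 10 kb were covered at each, so their counts are not independent. MIR125B2, in the same host gene, had 1 region within 10 kb in each line, covering 3.04% of the bases in H82 and 1.78% in H146. MIR7-2, in contrast, had a region in both lines, covering 80.8% and 20.8% of the bases within 1 kb.

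The consensus words were then compared between line-only regions, by exact match on both strands. Per kb, the H82-only regions of chromosome 15 held 1.05 TAATCC matches and its H146-only regions 0.368, which is 1.52 on the log2 scale (1.25 to 1.80), the same as on the other chromosomes (1.52). On chromosome 21 the densities were 0.781 and 0.420, and the log2 ratio was 0.90 (0.528 to 1.29). TGTTTAC went the other way, with log2 ratios of -1.67 (-1.99 to -1.34) and -1.65 (-2.18 to -1.10), against -1.26 elsewhere. The E-box words differed less: CAGATG had log2 ratios of 0.17 and 0.36, against 0.48 elsewhere, and CAGCTG had -0.18 and -0.17, against -0.13.

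These words were also counted in the highest and lowest bins. Of 20 H82-only regions of at most 300 bp from 96 to 97 Mb, 4 held TAATCC, and of 8 H146-only regions from 94 to 95 Mb, 1 held TGTTTAC. On chromosome 21, 0 of 10 and 0 of 2 such regions in the highest and lowest bins did. The H146-only region with TGTTTAC, in the bin of MCTP2, is shown as an example of that word, on the plus strand with the match in capitals.

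H146-only, chr15:94000771-94000992: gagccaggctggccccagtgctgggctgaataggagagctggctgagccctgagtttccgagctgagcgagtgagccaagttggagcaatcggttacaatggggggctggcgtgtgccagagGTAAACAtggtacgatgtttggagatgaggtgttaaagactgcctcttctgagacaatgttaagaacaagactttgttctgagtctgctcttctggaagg

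TAATCC, read on the other strand as GGATTA, is part of CTGGGATTA, a word of the Alu repeat, of which the genome holds very many copies. Matches inside CTGGGATTA, or inside a second Alu word that runs 4 bases past its end, on either strand, made up 753 of the 2258 TAATCC matches in the H82-only regions of chromosome 15 (33.3%) and 37 of 120 in its H146-only regions (30.8%). On chromosome 21 they were 275 of 806 (34.1%) and 10 of 64 (15.6%). Without them the log2 ratio of TAATCC per kb was 1.46 on chromosome 15 and 0.54 on chromosome 21. The first is close to the value over all matches, and the second is lower.

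The regions that held these Alu words were also counted. The words were in 14.4% of the H82-only regions of chromosome 15 and 3.81% of its H146-only regions, and in 10.9% and 2.42% on chromosome 21. The H82-only regions were also wider, with medians of 378 against 319 bp and 367 against 319 bp. Per kb, TAATCC matches inside the words came to 0.352 against 0.114 on chromosome 15 and 0.267 against 0.0656 on chromosome 21. The words were not counted on the other chromosomes, so whether they are particular to these chromosomes was not tested. When line-only regions with either word were left out, 3415 and 859 line-only regions remained on chromosome 15 and 1626 and 403 on chromosome 21, ratios of 3.98 and 4.03 in place of 4.47 and 4.42.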

How the data were processed

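ATAC-seq was carried out on H82 and H146 cells, untreated or given FHD-286. Following the study's methods, the authors trimmed reads with Trim Galore 0.4.4, aligned them to hg38 with bowtie2 2.3.4, removed duplicates with Picard, called regions per sample with MACS2, removed blacklisted regions and merged regions within 500 bp. Merging joins neighbouring sites, so a width is not that of a single site. Whether read ends were shifted for Tn5 is not given in the sources used here. For H146, 3 controls were sequenced in a different batch from the other control and the treated samples, and the merged list cannot separate these. The deposited files hold region starts, counted from 0, and ends, in bp, and no score, and there were 0 columns of other samples.

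From these, Python 3.11.15 with numpy 2.4.6, pandas 2.3.3 and scipy 1.17.1 computed counts, overlaps and exact binomial intervals. The functions for overlaps, covered bases and region counts were checked on simulated data. Genes came from GENCODE release 44 and sequences from hg38 and RefSeq. Bins took regions by their midpoint, with 0.5 added to each count for a log2 ratio. The chromosomes, gene lists and words were chosen with earlier results of these data known. Genes named were, per chromosome and line, up to 10 by the width of a region found at the TSS (1 kb) in that line alone, up to 5 by the number of regions within 10 kb in that line alone, and any list gene, with the 3 widest regions, 5 highest and 3 lowest bins. MIR99AHG, the microRNAs, the Alu words, SCG5 and the wide regions by bin were added after their values were seen. No significance test was run, because each line has 1 merged list. Some genes and sequences are not reported here.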

Additional observations from a re-analysis of the deposited data

How the results depend on the processing

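Of 90 alternative values, 56 stayed within the counting error of the value given or within 1.5 times the count, and 34 moved further. A change of direction was looked for only in the log2 ratios of region counts and of words, and 0 were found. In covered bases the log2 ratio relative to the other chromosomes was 0.69 on chromosome 15 and 0.78 on chromosome 21. With an overlap of 50% of both regions, the shared percent was 30.3 and 26.9 in H82 and 54.4 and 50.7 in H146. Among regions of at least 500 bp it was 45.3 and 40.8 in H82, and 76.25 in H146 on chromosome 21. Counting regions within 500 bp as shared gave 78.4 and 75.6 in H146. Without regions of exactly 200 bp the median width was 504 and 512.5 bp in H82 and 522.5 and 502.5 bp in H146. On chromosome 21 the order of the lines thus turned, since with all regions it was 459 bp in H82 and 480 bp in H146. Relative to the genome-wide ratio, 27.2% of bins of chromosome 15 reached a log2 ratio of 1.

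One-line gene counts rested on the definition of a start. With a region over the TSS base itself, H146 alone had 10 genes on chromosome 15 and H82 alone 15 on chromosome 21. A window of 5 kb gave 6 for H146 on chromosome 15 in place of 1 kb, and 54 for H82 in place of 10 kb. With regions of at least 500 bp, the counts within 1 kb were 6 (H146, chromosome 15), 15 (H82, chromosome 21) and 2 (H146, chromosome 21), and within 10 kb 50 (H82, chromosome 15). With all transcripts, the counts within 10 kb were 15 for H82 and 2 for H146 on chromosome 15 and 2 for H146 on chromosome 21. Without families of close copies they were 11 for H82 and 3 for H146 within 10 kb, and 3 for H146 within 1 kb, on chromosome 21. In the central 200 bp the log2 ratio of TAATCC was 2.08 and 1.565, that of TGTTTAC on chromosome 15 was -2.18 and that of CAGATG on chromosome 21 was 0.68. The causes of these shifts were not tested.

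Chosen after the data were seen, leaving out the proximal parts (before 23 Mb on chromosome 15 and 14 Mb on chromosome 21) gave 0.64 and 0.73. No paired analysis was possible because each line has 1 merged list and no test was run. Depth and replicate spread are unknown.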
